A study of Mus musculus with 6 samples.

Results

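Lysozymes and other secreted antimicrobial proteins were followed in whole hearts of mice that over-express the adenosine A2a receptor and of wild-type littermates, all under pressure overload. The set was chosen by gene name and holds 10 genes of the 19938 that have an array row annotated with exactly 1 symbol. Each of the 10 had a single such row, so the further rule, which keeps a gene's brightest row, decided nothing. The names were drawn up with earlier results of the same genotype comparison known. Counts over the set are therefore given as a description, and nothing is concluded from them.

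The mice were 6 males of the inbred FVB strain that underwent transverse aortic constriction (TAC), a surgical narrowing of the aortic arch, at 8 weeks of age. Hearts were harvested after 14 weeks. In 3 mice (A2a-R TG) the receptor was over-expressed by a transgene described as cardiac-specific and inducible, and 3 littermates were wild type. The transgene's promoter and the way it was induced were not stated. Both groups underwent the surgery, so an effect of the transgene without TAC was not analysed here. RNA of each heart was hybridised to 1 Affymetrix Mouse Gene 1.0 ST array, and values are on the log2 scale, where a difference of 1 is a doubling. With 3 arrays per group the precision was limited, and the median standard error (SE) of a genotype difference was 0.073. Array means lay between 7.03 and 7.06, and 8 cardiomyocyte markers, Myh6 and Tnnt2 among them, averaged 13.61 to 13.69 in all 6 hearts. Of these markers Ryr2 differed by 0.25 and Mb by -0.09, transgenic minus wild type (limma adjusted p = 0.149 and 0.461). Both were without overlap between the groups, as were 20.3% of the 21789 array rows annotated with exactly 1 symbol.

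Lysozyme splits the peptidoglycan wall of bacteria. The mouse has a pair of neighbouring genes, Lyz2, the M-type enzyme of macrophages and neutrophils, and Lyz1, the P-type enzyme best known from Paneth cells of the gut. Wfdc17 encodes a small secreted protein with a whey acidic protein (WAP) domain that activated macrophages and microglia make. These 3 genes were grouped here as macrophage products. The other 7 are proteins stored in neutrophil granules or cytosol. Lcn2 (lipocalin-2) captures bacterial iron carriers, and Ltf (lactoferrin) binds iron itself. S100a8 and S100a9 form calprotectin, which withholds zinc and manganese from microbes. Camp is the precursor of the antimicrobial cathelicidin peptide, Ngp a cystatin-related protein of neutrophil granules, and Slpi a WAP-domain inhibitor of neutrophil elastase. The grouping is not strict, since neutrophils hold Lyz2, and Lcn2 and Slpi are also made by epithelial and stressed parenchymal cells.

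The 4 genes with the largest differences between genotypes are shown with the 250 bases before their start site, because 3 of them are macrophage products that lay higher together and the fourth, Lcn2, was the granule product that differed most. Sequences are from RefSeq, build GRCm38.p6, which is of the C57BL/6J strain and not of FVB, 5′ to 3′ on the gene's own strand, and capitals mark matches on either strand to the motifs described after them. Lyz1 is at chr10:117292869-117293118 and Lyz2 at chr10:117282273-117282522, both on the minus strand, Wfdc17 at chr11:83703806-83704055 on the plus strand, and Lcn2 at chr2:32387740-32387989 on the minus strand.
Lyz1: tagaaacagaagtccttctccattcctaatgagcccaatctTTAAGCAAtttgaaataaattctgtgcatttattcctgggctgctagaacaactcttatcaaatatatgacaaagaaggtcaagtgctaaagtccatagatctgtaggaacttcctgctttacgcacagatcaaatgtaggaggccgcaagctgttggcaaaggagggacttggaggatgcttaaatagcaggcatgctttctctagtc
Lyz2: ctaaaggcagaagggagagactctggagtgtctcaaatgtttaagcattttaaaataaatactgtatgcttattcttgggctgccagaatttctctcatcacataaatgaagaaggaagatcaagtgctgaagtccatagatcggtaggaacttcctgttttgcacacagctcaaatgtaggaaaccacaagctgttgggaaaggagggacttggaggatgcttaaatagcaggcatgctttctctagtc
Wfdc17: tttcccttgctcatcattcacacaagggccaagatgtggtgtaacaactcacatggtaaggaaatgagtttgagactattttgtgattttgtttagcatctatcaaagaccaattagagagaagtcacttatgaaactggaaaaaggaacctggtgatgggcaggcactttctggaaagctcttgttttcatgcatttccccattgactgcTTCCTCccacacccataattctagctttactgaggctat
Lcn2: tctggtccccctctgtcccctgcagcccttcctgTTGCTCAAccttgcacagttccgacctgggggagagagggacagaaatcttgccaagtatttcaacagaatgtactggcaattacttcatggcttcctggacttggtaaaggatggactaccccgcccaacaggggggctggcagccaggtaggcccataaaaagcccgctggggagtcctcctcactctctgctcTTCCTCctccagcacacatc

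The upstream windows of both lysozyme genes were closely related: 205 of 260 aligned columns (78.8%) held the same base, and the last 50 bases before the start site were identical. For S100a8 and S100a9, the other neighbouring pair, the share was 49.8%. Pairs that are not neighbours, aligned in the same way, had similar shares: 49.0% (Camp and Ngp), 48.8% (Wfdc17 and Slpi) and 46.3% (Lyz2 and Lcn2). Windows of all 10 genes, each extended by 50 bases past the start site, were searched on both strands for 4 motifs of factors known from myeloid and inflammatory genes. The C/EBP motif TTNNGCAA was found in 6 of 10 windows, those of Lyz1, Lcn2, Slpi, S100a9, Ngp and Ltf, and in 10.8% of all 32851 promoter windows of the same length. The PU.1 motif GAGGAA was found in 4, those of Wfdc17, Lcn2, S100a8 and Ltf, and in 28.3% of all windows. The kappa B motif, searched as GGGA and CC with any 4 bases between them, was found in Camp alone (20.7% of all windows), and the STAT motif TTCNNNGAA in 0 of the 10 (8.3% of all windows). A match describes the letters of the window. C/EBP matches occurred in genes that lay higher in the transgenic hearts (Lyz1, Lcn2) and in genes with small or negative differences (Slpi, S100a9, Ngp, Ltf).

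All 3 macrophage products lay higher in every transgenic heart than in every wild-type heart, and Lyz1 and Wfdc17 passed the test across all genes. Wfdc17 rose 1.52-fold, Lyz1 rose 1.44-fold, and Lyz2 was 1.33-fold higher without passing. Among the 7 granule products Lcn2 rose 1.58-fold, and the remaining 6 differed by -0.22 to 0.18 on the log2 scale without passing. In all, 3 of 10 genes passed at an adjusted p below 0.05, all of them higher in the transgenic hearts. Over all 21789 tested rows 0.959% passed, 0.519% higher and 0.441% lower. This balance turned without the dimmest 40% of rows (184 higher, 309 lower) and with a trended and robust variance prior (240 higher, 339 lower), against 113 higher and 96 lower here. At an unadjusted p below 0.05 there were 4 of the 10, the same 3 and Lyz2, against 14.8% of all tested rows. The test was limma's, with p-values adjusted over all tested rows.

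Lyz1 measured 6.98, 6.77 and 6.69 in the wild-type hearts and 7.36, 7.37 and 7.30 in the transgenic hearts. The transgenic values lay within 0.07 of each other, and the lowest of them was above the highest wild-type value. The difference was 0.53 ± 0.08 (SE) on the log2 scale, with a 95% interval of 0.34 to 0.72 and a limma adjusted p of 0.0271. Without wild-type replicate 1 the call held (0.0208), and without any other 1 heart it was lost, with an adjusted p of 0.0776 to 0.12.

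Lyz2 measured 10.74, 10.55 and 10.46 in the wild-type hearts and 10.92, 11.17 and 10.90 in the transgenic hearts. The groups did not overlap, but the gap between them was 0.16, and transgenic replicate 2 stood above its group. The difference was 0.41 ± 0.10 (SE), with a 95% interval of 0.19 to 0.64 and a limma adjusted p of 0.112. Over the alternative settings this adjusted p ran from 0.0304 to 0.292. The genotype difference of Lyz1 exceeded that of Lyz2 by 0.12 on the log2 scale. The transcripts of these 2 related genes were not compared here. To what extent the array separates them was not tested, so the values of Lyz1 and Lyz2 may not be independent.

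Wfdc17 measured 10.12, 10.05 and 9.94 in the wild-type hearts and 10.54, 10.77 and 10.61 in the transgenic hearts. Its gap between the groups, 0.42, was the widest of the 3 macrophage products. The difference was 0.60 ± 0.08 (SE), with a 95% interval of 0.42 to 0.79 and a limma adjusted p of 0.014. The call was lost without wild-type replicate 2 (0.0702), wild-type replicate 3 (0.0628) or transgenic replicate 3 (0.0537).

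The 3 macrophage products ranked the hearts alike at the extremes. Within the wild-type group each of them was highest in replicate 1 and lowest in replicate 3, and each was highest of all in transgenic replicate 2. That heart's lead over the next was 0.25 for Lyz2 and 0.16 for Wfdc17, but only 0.01 for Lyz1. With each gene centred on its 6-heart mean, the mean over the 3 genes was -0.12, -0.28 and -0.37 in the wild-type hearts and 0.20, 0.37 and 0.20 in the transgenic hearts.

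**Figure D1:**
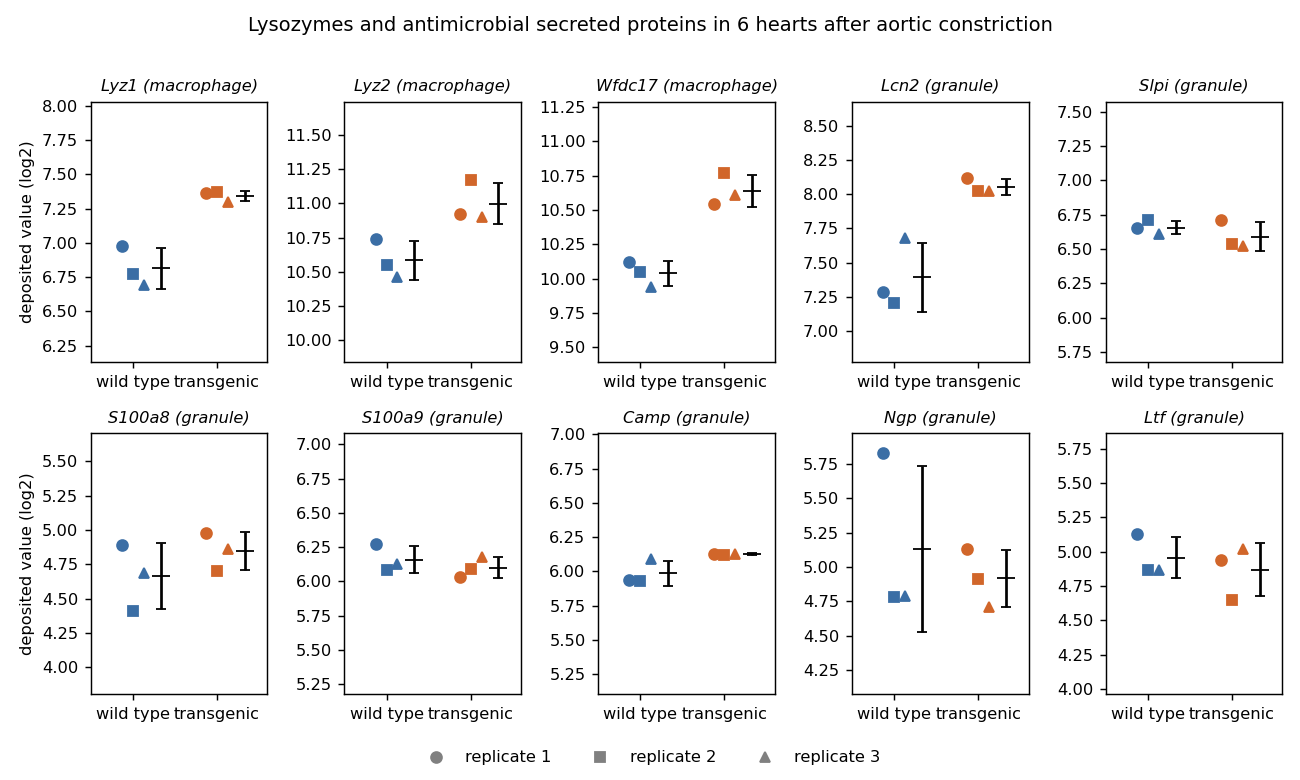
Deposited log2 values of the 10 genes (vertical axis, same span in every panel) in 3 wild-type (blue) and 3 transgenic (orange) hearts after aortic constriction. Symbols mark the replicates and black bars the group mean ± SD (n = 3). Lyz1, Lyz2, Wfdc17 and Lcn2 separate by genotype, Camp separates by a small step, and Ngp has a single high wild-type heart at 5.83.

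Lcn2 measured 7.29, 7.21 and 7.68 in the wild-type hearts and 8.12, 8.02 and 8.02 in the transgenic hearts. Wild-type replicate 3 stood between its group and the transgenic hearts, and no values overlapped. The difference was 0.66 ± 0.12 (SE), the largest of the 10, with a 95% interval of 0.39 to 0.93 and a limma adjusted p of 0.0474. Without wild-type replicate 3 the adjusted p was 0.0111, and without any other 1 heart the call was lost (0.109 to 0.153). The wild-type hearts thus ranked differently for Lcn2, where replicate 3 was highest, than for the macrophage products, where replicate 3 was lowest.

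S100a8 measured 4.89, 4.41 and 4.69 in the wild-type hearts and 4.98, 4.70 and 4.86 in the transgenic hearts, and the groups overlapped. Its difference was 0.18 ± 0.12 (SE, limma adjusted p = 0.552). S100a9, its partner in calprotectin, measured 6.27, 6.08 and 6.13 in the wild-type and 6.03, 6.09 and 6.18 in the transgenic hearts. The groups overlapped again, and the difference was -0.06 ± 0.07 (SE, limma adjusted p = 0.762), with a 95% interval of -0.23 to 0.11.

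Camp measured 5.94, 5.93 and 6.09 in the wild-type hearts and 6.13, 6.12 and 6.13 in the transgenic hearts. The groups were separate by 0.03, and the transgenic hearts were nearly equal. The difference was 0.14 ± 0.06 (SE), with a 95% interval of -0.0047 to 0.28 and a limma adjusted p of 0.352. Without overlap, 5 of the 10 genes were higher and 0 lower, where 7.73% of all tested rows were higher and 12.6% lower without overlap, 20.3% in all.

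Ngp measured 5.83, 4.78 and 4.79 in the wild-type hearts and 5.13, 4.91 and 4.71 in the transgenic hearts. Wild-type replicate 1 was 0.70 above the next heart of either group. The difference was -0.22 ± 0.26 (SE, limma adjusted p = 0.767), and without that heart it was 0.13. Ltf measured 5.13, 4.87 and 4.87 in the wild-type and 4.94, 4.65 and 5.02 in the transgenic hearts, which overlapped, with a difference of -0.09 ± 0.11 (SE, limma adjusted p = 0.783). Slpi measured 6.65, 6.71 and 6.61 against 6.71, 6.54 and 6.52, with a difference of -0.07 ± 0.07 (SE, limma adjusted p = 0.722) and a 95% interval of -0.23 to 0.09.

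**Figure D2:**
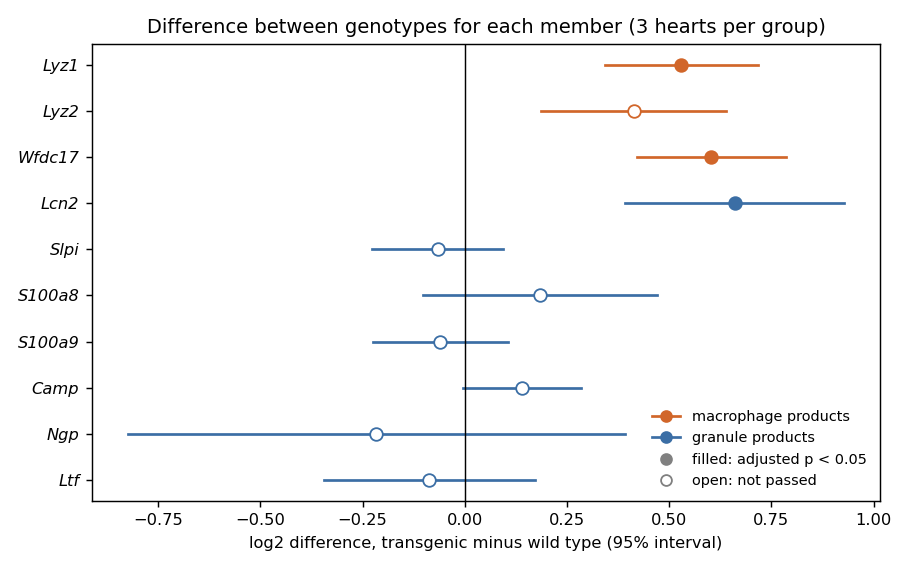
Log2 difference, transgenic minus wild type, of each of the 10 genes (points) with its 95% interval from limma (lines), 3 hearts per group. Macrophage products are orange and granule products blue, and filled points passed at an adjusted p below 0.05. The intervals of Lyz1, Lyz2, Wfdc17 and Lcn2 lie above 0, and those of the other 6 genes include 0.

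The median log2 difference was 0.53 over the 3 macrophage products and -0.06 over the 7 granule products, against -0.01 over all tested rows. The granule median turned to 0.12 without wild-type replicate 1 and to 0.023 without transgenic replicate 2, and to 0.30 without the dimmest 40% of rows, which leaves Lcn2 and Slpi. The centred mean of the granule products overlapped between genotypes, at 0.11, -0.18 and -0.05 in the wild-type and 0.12, -0.03 and 0.03 in the transgenic hearts. The median of the 6 granule products other than Lcn2, a subset formed after the values had been seen, was also -0.06. Their rows were dim. Of the 7 granule products, 5 (S100a8, S100a9, Camp, Ngp and Ltf) were among the dimmest 40% of tested rows, with a 6-heart mean below 6.57, against 0 of the 3 macrophage products. Changes of dim rows are compressed on this scale, so a difference of the granule genes may be understated, and no detection calls were used here. The 95% intervals ran from -0.10 to 0.47 for S100a8, from -0.82 to 0.39 for Ngp and from -0.34 to 0.17 for Ltf, so differences of those sizes in either direction lay within the error.

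Markers of the cells that make these proteins were measured beside them. In whole hearts, fewer cells of a type and less RNA per cell cannot be told apart. Of 18 macrophage markers 17 had positive differences, 1 rose (Lgals3, the lectin galectin-3) and 17 did not pass, with a median of 0.22. Over all 21789 tested rows 9748 had positive differences and 0.959% passed. At an unadjusted p below 0.05 there were 10 of the 18, against 14.8% of all tested rows. Without overlap 11 were higher, against 7.73% of all tested rows. The mean level of the 18 was 7.93 to 8.04 in the wild-type and 8.20 to 8.28 in the transgenic hearts, without overlap. Lgals3 rose by 0.61 ± 0.06 (SE, limma adjusted p = 0.00423), from 7.52, 7.52 and 7.58 to 8.15, 8.10 and 8.21, and passed in all 13 alternative fits, with an adjusted p of at most 0.0303. The lysosomal protein Cd68 differed by 0.62 (limma adjusted p = 0.0622) and the complement genes C1qc and C1qb by 0.47 and 0.42 (0.0558 and 0.0537). The recruited-monocyte receptor Ccr2 and the mannose receptor Mrc1 both differed by 0.24, and the lowest of the list were Mertk at 0.05, Cd163 at 0.00 and Timd4 at -0.03. Of the 18 markers 2, Cd68 and Lgals3, had a larger difference than Wfdc17. The part of macrophage number in the lysozyme and Wfdc17 values was not tested.

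Of 11 measured neutrophil markers 4 had positive and 7 negative differences, 0 passed in limma, 1 had an unadjusted p below 0.05, and the median was -0.04. Their mean level was 5.40 to 5.53 in the wild-type and 5.41 to 5.50 in the transgenic hearts, and 9 of the 11 were among the dimmest 40% of rows. Ly6g, the surface antigen that defines mouse neutrophils, measured 5.0, 4.71 and 4.65 against 4.75, 4.66 and 4.83. The chemokine receptor Cxcr2 differed by 0.14 and the growth factor receptor Csf3r by -0.14. The receptors Trem1 and Clec4d were at 0.18 and 0.14, and Hdc, the histamine-forming enzyme, was lowest, at -0.17. Wild-type replicate 1, where Ngp stood highest, was also the heart with the highest marker mean, 0.07 above the 6-heart mean. Transgenic replicate 3 was next, at 0.05, and over all tested rows wild-type replicate 1 was highest too, by a mere 0.0088 above the mean. Epithelial markers, counted because epithelia make Lcn2 and Slpi, had a median of 0.02 over 8 genes, of which 0 passed in limma and 1 had an unadjusted p below 0.05; Epcam was at 0.02, the keratins Krt18 and Krt19 at 0.31 and 0.13 (limma adjusted p = 0.204 for Krt18), and the lowest, Sftpc and Krt8, at -0.03 and -0.01.

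**Figure D3:**
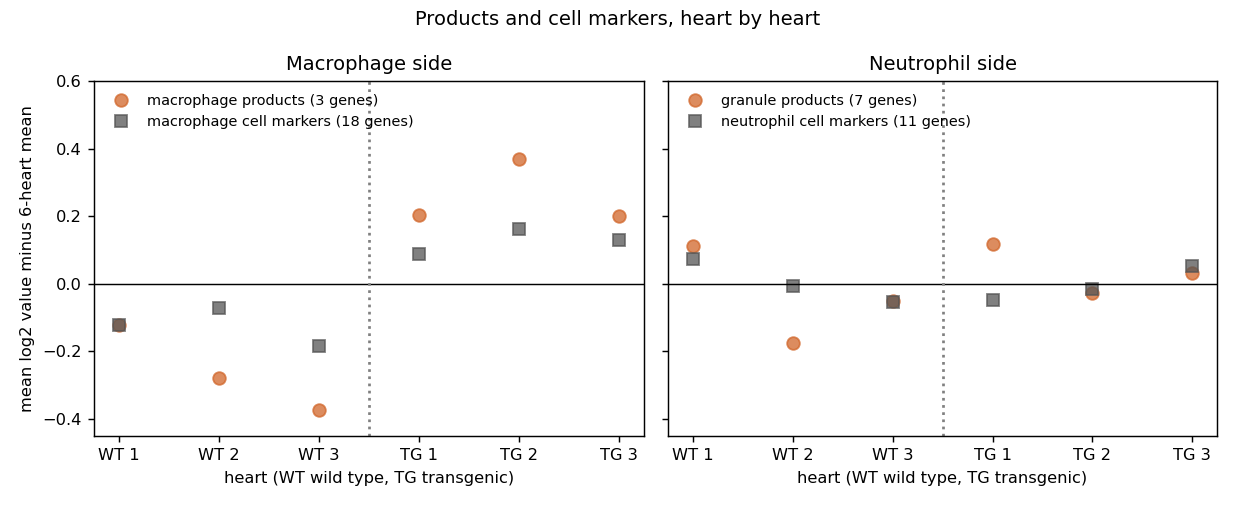
Mean log2 value minus the 6-heart mean (vertical axis) for each wild-type (WT) and transgenic (TG) heart. On the left are the 3 macrophage products (orange) and 18 macrophage markers (grey), on the right the 7 granule products and 11 neutrophil markers. Macrophage products run from -0.37 to -0.12 in wild-type and from 0.20 to 0.37 in transgenic hearts, and the granule products overlap between genotypes.

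Other proteins of neutrophil granules were measured too, and 14 of the 19 were among the dimmest 40% of rows. Of these 19 genes 13 had positive differences, 0 passed in limma, 4 had an unadjusted p below 0.05, and the median was 0.10. Over all tested rows 0.959% passed and 14.8% had an unadjusted p below 0.05. The classical azurophil proteins Mpo, Prtn3 and Elane, a peroxidase and serine proteases, differed by -0.05, -0.03 and 0.15. The highest value was that of Chil3, a chitinase-like protein that macrophages also secrete, at 0.53 ± 0.14 (SE, limma adjusted p = 0.151), with 4.49, 4.50 and 4.73 against 4.84, 5.43 and 5.04. The next was Cybb, a subunit of the phagocyte oxidase, at 0.29, and the lowest were Mmp8, the neutrophil collagenase, at -0.12 and Mmp9, a gelatinase, at -0.09.

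Family relatives of the members were measured as well, and over all tested rows 0.959% passed and 14.8% had an unadjusted p below 0.05. Of 26 further lysozyme-like and WAP-domain genes 19 were among the dimmest 40% of rows. In this list 0 passed in limma, 1 had an unadjusted p below 0.05, and the median was 0.025. The highest were Wfdc6a at 0.25 and Wfdc9 at 0.23, and the lowest Wfdc6b at -0.13 and Lyzl1 at -0.10. Of 14 further S100 genes 0 passed in limma, 3 had an unadjusted p below 0.05, and the median was -0.015. S100a10, the annexin A2 partner, and S100a11 were at 0.20 and 0.17, and S100a1, the S100 protein of cardiomyocytes, and S100a3 at -0.16 and -0.14. Of 24 lipocalins, cystatins and transferrins, 18 were among the dimmest 40% of rows and 5 had an unadjusted p below 0.05. Apod, the lipid-carrying lipocalin apolipoprotein D, rose and 23 did not pass, with a median of 0.06. The next highest was Cst7 at 0.21, and the lowest were Cst6 and Orm3, at -0.13 and -0.12. Apod measured 9.39, 9.16 and 9.25 in the wild-type and 9.82, 9.79 and 9.66 in the transgenic hearts, a difference of 0.49 ± 0.08 (SE, limma adjusted p = 0.0306). That call was lost without any 1 heart except wild-type replicate 1 (0.0581 to 0.12).

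Among 23 other soluble antimicrobial and pathogen-binding proteins, 2 rose and 21 did not pass, with a median of 0.10. At an unadjusted p below 0.05 there were 10 of the 23, against 14.8% of all tested rows. Without overlap 6 were higher and 1 lower, against 7.73% and 12.6% of all tested rows. The 2 that rose were Lgals3, already given as a macrophage marker, and Lbp, which carries bacterial lipopolysaccharide to Cd14. Lbp measured 8.24, 8.23 and 8.07 in the wild-type and 8.63, 8.57 and 8.61 in the transgenic hearts, a difference of 0.42 ± 0.07 (SE, limma adjusted p = 0.0282), and the call was lost without any 1 of the 6 hearts (0.0642 to 0.0992). Saa3, an acute-phase protein of macrophages and other tissues, was at 0.55 ± 0.16 (limma adjusted p = 0.173). The lowest were Colec12, a scavenger receptor, at -0.30 and Nos2, the inducible nitric oxide synthase, at -0.16.

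**Figure D4:**
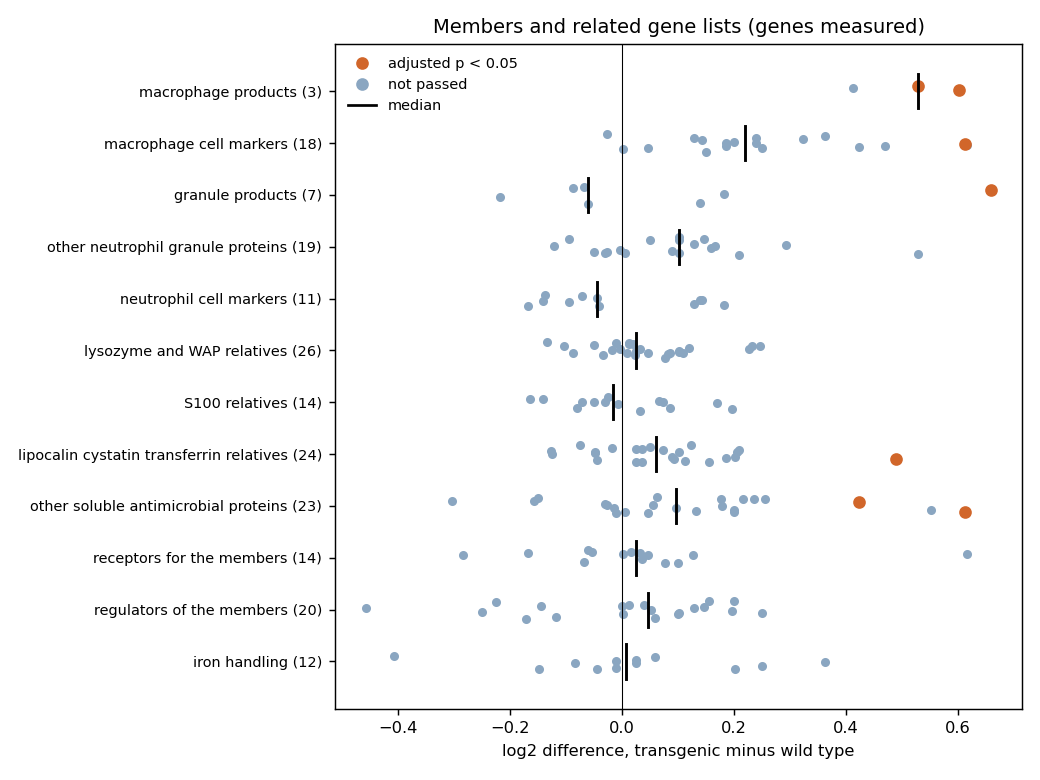
Log2 difference, transgenic minus wild type (horizontal axis), of each measured gene in the member groups and related lists, with the number of genes in brackets; black bars are medians and orange points passed at an adjusted p below 0.05. The 3 macrophage products lie between 0.41 and 0.60, and Lcn2 is the single granule product that passed, at 0.66. Lgals3 appears in both lists that hold it.

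Receptors and regulators of these proteins were set beside the same shares of all tested rows, 0.959% passing and 14.8% at an unadjusted p below 0.05. Of 14 measured receptor genes 0 passed in limma, 2 had an unadjusted p below 0.05, and the median was 0.025. The highest were Cd68, already given as a macrophage marker, at 0.62 without overlap (limma adjusted p = 0.0622) and Cd69 at 0.13, and the lowest Tlr4 and Plscr1, at -0.28 and -0.17. Tlr4, a receptor for calprotectin, measured 8.72, 8.51 and 8.40 in the wild-type and 8.25, 8.29 and 8.24 in the transgenic hearts, without overlap (limma adjusted p = 0.184). The lipocalin-2 receptor Slc22a17 was at -0.07. Of 20 measured regulators 0 passed in limma, 5 had an unadjusted p below 0.05, and the median was 0.05. Spi1, which encodes PU.1, and Cebpd, a C/EBP factor, were at 0.20, Cebpe, the granule gene regulator, at 0.00, and the cytokines Il6 and Tnf at 0.25 and -0.46 (limma adjusted p = 0.492 and 0.333). Csf1, the macrophage growth factor, measured 9.01, 9.27 and 9.07 against 8.89, 8.85 and 8.86, a difference of -0.25 (limma adjusted p = 0.193), without overlap. Among the 14 receptor genes 1 was higher and 2 lower without overlap, and among the 20 regulators 1 was higher and 2 lower. Over all tested rows the shares without overlap were 7.73% higher and 12.6% lower.

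**Figure D5:**
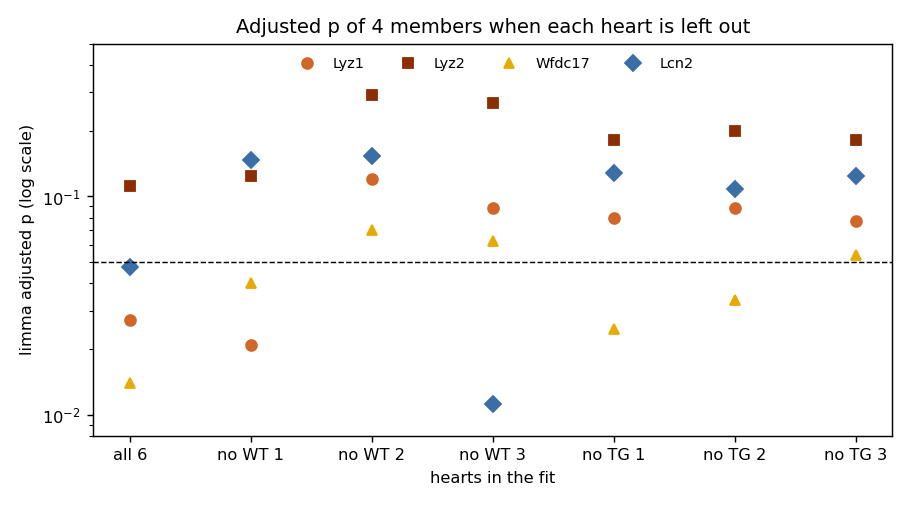
Limma adjusted p (log axis) of Lyz1, Lyz2, Wfdc17 and Lcn2 with all 6 hearts and with each wild-type (WT) or transgenic (TG) heart left out; the dashed line is the threshold of 0.05. Lcn2 falls to 0.0111 without wild-type replicate 3 and lies above the threshold in the other 5 fits with 5 hearts, and Lyz2 lies above it throughout.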

How the data were processed

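Whole-heart RNA of 6 mice was measured, each on its own Affymetrix array. The values as deposited are log2 values made by the authors with RMA (background correction, quantile normalization, probe summary) and Partek, per the submitters' processing notes; versions and build were not stated. RMA hides global shifts and compresses changes of dim rows. Platform annotation of 2016 gave exactly 1 symbol for 21789 of 28853 rows, and these were tested with limma 3.58.1 in R 4.3.3 (lmFit, eBayes, no covariate). Benjamini-Hochberg adjustment ran over all of them, and the code was checked on simulated data. Errors are SD over 3 hearts or the moderated SE.

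The members and lists were chosen with earlier results of these data known. In lists beside the members, the called genes, the 2 highest and 2 lowest differences and cell type markers were to be named; Mpo, Prtn3, Elane, Slc22a17, Spi1, Cebpe, Fth1, Ftl1 and chromosomal neighbours were added after their values had been seen. Alternatives were a second quantile normalization, median centring, a trended and robust prior, dropping the dimmest 40% of rows, array weights, the title's replicate number as a block, averaging a gene's rows, and omitting each heart.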

Additional observations from a re-analysis of the deposited data

How the results depend on the processing

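The differences of Lyz1, Lyz2, Wfdc17 and Lcn2 stayed positive in all 13 alternative fits. Of the 10 genes, 3 passed in the main setting, and the count was 0 to 2 when any 1 heart was left out and 0 with the replicate block, where the limma adjusted p of Lyz1, Wfdc17 and Lcn2 was 0.0575, 0.0529 and 0.0859. Apod and Lbp, added to these fits after their values had been seen, had 0.0665 and 0.0808 there. Lyz2 passed without the dimmest 40% of rows (0.0491) and with a trended and robust prior (0.0304). Leaving out those rows removes 5 granule genes by construction and moved the granule median to 0.30 and the difference of the medians to 0.23. With 1 heart left out the medians ran from 0.47 to 0.61 (macrophage) and from -0.075 to 0.12 (granule), and their difference from 0.49 to 0.58. Ltf ran from -0.16 to 0.023 with 1 heart left out, positive without transgenic replicate 2, and Ngp from -0.39 to 0.13, positive without wild-type replicate 1. All rows passing numbered 209 in the main setting, against 493 without dim rows, 579 with the trended and robust prior, 97 with the block and 84 to 147 with 1 heart left out. Whether equal replicate numbers pair the hearts could not be told. Deviations from the group means correlated at 0.16, -0.01 and -0.10 for equal numbers and at -0.21 to 0.23 for unequal ones. With 3 hearts per group these values cannot decide it. Dim rows limit what the granule genes can show.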

Other observations

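The genes of the iron economy that lactoferrin and lipocalin-2 act on were measured as well. Of 12 measured iron-handling genes 0 passed in limma, 3 had an unadjusted p below 0.05, and the median was 0.01. Over all tested rows the shares were 0.959% and 14.8%. Hmox1, the heme-degrading enzyme, measured 7.79, 8.00 and 8.08 in the wild-type and 8.26, 8.52 and 8.18 in the transgenic hearts, a difference of 0.36 (limma adjusted p = 0.181). Slc40a1, the iron exporter ferroportin, measured 6.72, 7.01 and 6.72 against 6.25, 6.45 and 6.53, a difference of -0.41 (limma adjusted p = 0.132). Both were without overlap. Of the 12 genes 2 were higher and 2 lower without overlap, against 7.73% and 12.6% of all tested rows. The transferrin receptor Tfrc was at 0.25 and ceruloplasmin, Cp, at -0.15, and the ferritin chains Fth1 and Ftl1 were at 0.03 and -0.04.

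Genes with the most similar profile over the 6 hearts were found for the 5 members whose SD over the hearts was above 0.25, by the root mean square difference of centred log2 values among 689 genes of that spread. For Lyz1 they were Serping1, the inhibitor of complement C1 (0.03), C1s1, a complement protease (0.05), and Sfrp1, a secreted Wnt inhibitor (0.06). For Lyz2 they were Pirb, a myeloid inhibitory receptor (0.06), the matrix glycoprotein Tnc (0.07) and Serping1 again (0.08). For Wfdc17 they were Ctsh, a lysosomal cathepsin (0.06), Aass, an enzyme of lysine breakdown (0.06), and Sulf2, a sulfatase of heparan sulfate (0.07). For Lcn2 they were the olfactory receptor gene Olfr347 (0.10), the chemokine Ccl9 (0.10) and Phka1, a phosphorylase kinase subunit (0.10). Of these genes Tnc, Aass and Olfr347 were among the dimmest 40% of rows. For Ngp, whose spread comes mostly from wild-type replicate 1, the nearest was Ecrg4 (0.13), which measured 7.19 in that heart and at most 6.62 in the others. Next were the olfactory receptor genes Olfr288 (0.15) and Olfr1290 (0.15), both among the dimmest 40% of rows. They measured 5.97 and 4.16 in that heart and at most 5.31 and 3.71 in the others. All of these profiles share the same 6 arrays, and the measure keeps the step between genotypes, so genes with a similar genotype difference lie close.

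Along the chromosome, in RefSeq's gene order, Wfdc17 lies between chemokine genes and other WAP-domain genes. Of the 3 measured genes on one side, Ccl6 rose by 0.62 (limma adjusted p = 0.00352), Ccl3 was at 0.61 (0.207) and Ccl4 at 0.07 (0.706). On the other side Wfdc18 was at 0.08, Wfdc21 at 0.12 and Heatr6 at -0.06. Beside the lysozyme pair, Cpsf6 was at -0.02 and 9530003J23Rik, a lysozyme-like gene, at -0.02. Among the 3 measured genes on each side of the granule products, the lowest limma adjusted p was 0.207, that of Lor near S100a9.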
